A study of Mus musculus with 24 samples.

Results

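The Z-disc structural proteins described here are 10 genes: the sarcomeric α-actinins Actn2 and Actn3, the myozenins Myoz1, Myoz2 and Myoz3, the titin cap Tcap, myotilin (Myot), filamin C (Flnc), myopodin (Synpo2) and desmin (Des). They were chosen by symbol, and all 10 were found among the 47643 genes of the deposited count table. The RNA came from plantaris, a fast hindlimb muscle, of wild type C57BL/6 mice. In the air group, 11 samples came from mice kept in normal air, and in the smoke group 13 samples came from mice after 16 weeks of tobacco smoke. The series title names chronic activity of the aryl hydrocarbon receptor as the study's subject. Both groups here are labelled wild type, and activity of that receptor was not examined. No age, no sex and no time of day of collection is given in the labels. The labels number replicates without saying that each is a separate animal, so the p-values measure the spread between these samples.

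The Z-disc is the plate that borders each sarcomere. Antiparallel actin filaments of neighbouring sarcomeres are cross-linked there by α-actinin, titin is anchored there by its cap, and desmin filaments tie neighbouring myofibrils to each other at this level. Myozenins bind α-actinin, filamin C and the phosphatase calcineurin, and several of these proteins have isoforms that differ between fast and slow fibres: Actn3 is found in fast fibres, Actn2 in all fibres, Myoz1 mainly in fast fibres and Myoz2 mainly in slow fibres and heart.

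Sequence upstream of the start was at hand for 5 of the 10 genes (Actn2, Flnc, Des, Myoz2 and Synpo2), from RefSeq on build GRCm38.p6, as windows of 250 bases before to 50 bases after a gene's start. Shown are those of Actn2, the member that passed the test between groups, of Myoz2, whose level correlated with it across samples, and of Synpo2 and Flnc, the other members with a match to one of the motifs below. The Actn2 window is chr13:12340683-12340982 on the minus strand, that of Myoz2 is chr3:123034938-123035237 on the minus strand, that of Synpo2 is chr3:123236100-123236399 on the minus strand, and the second of 2 overlapping Flnc windows is chr6:29433006-29433305 on the plus strand. Capitals mark matches, on either strand, to CACGTG (the E-box form bound by clock factors), to the MEF2 site (bound by the muscle factor MEF2) and to CATTCC (the MCAT element).
Actn2: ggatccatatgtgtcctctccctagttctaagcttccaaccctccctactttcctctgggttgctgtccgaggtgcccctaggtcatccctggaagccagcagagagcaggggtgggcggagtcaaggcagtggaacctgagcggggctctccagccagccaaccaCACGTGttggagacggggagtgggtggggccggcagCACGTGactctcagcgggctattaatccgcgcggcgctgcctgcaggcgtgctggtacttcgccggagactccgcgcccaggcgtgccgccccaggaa
Myoz2: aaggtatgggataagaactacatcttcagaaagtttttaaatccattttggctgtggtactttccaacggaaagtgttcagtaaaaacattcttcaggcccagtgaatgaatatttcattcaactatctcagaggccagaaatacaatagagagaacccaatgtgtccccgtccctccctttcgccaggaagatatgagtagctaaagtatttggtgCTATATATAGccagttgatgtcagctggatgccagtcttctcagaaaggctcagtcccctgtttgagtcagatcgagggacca
Synpo2: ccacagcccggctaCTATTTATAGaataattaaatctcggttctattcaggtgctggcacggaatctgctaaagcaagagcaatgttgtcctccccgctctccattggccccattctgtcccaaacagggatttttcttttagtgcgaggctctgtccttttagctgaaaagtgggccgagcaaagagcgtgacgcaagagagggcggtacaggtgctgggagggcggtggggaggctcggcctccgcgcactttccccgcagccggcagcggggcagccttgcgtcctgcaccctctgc
Flnc: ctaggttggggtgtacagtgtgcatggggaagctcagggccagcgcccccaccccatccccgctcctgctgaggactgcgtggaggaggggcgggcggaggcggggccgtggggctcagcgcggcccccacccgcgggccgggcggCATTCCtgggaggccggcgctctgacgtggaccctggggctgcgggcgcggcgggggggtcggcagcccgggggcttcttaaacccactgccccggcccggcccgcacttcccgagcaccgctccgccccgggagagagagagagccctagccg

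The Actn2 window held CACGTG at 2 places, from −84 to −79 and from −48 to −43 relative to the start. Of 32851 such windows of all genes, 7.15% held CACGTG at least once and 0.594% held it 2 or more times. The Myoz2 window held a MEF2 match from −33 to −24 and the Synpo2 window one from −236 to −227, and 3.19% of all windows held one. The Flnc window held CATTCC from −104 to −99, as 14.7% of all windows did. The D-box form TTANGTAA (2.32% of windows) and the CArG box (1.63%) were also searched on both strands and were in none of the 6 windows of these members. The looser E-box CANNTG, which contains CACGTG, was in 72.3% of all windows, and in those of Actn2, Myoz2, Synpo2 and Des. These matches describe letters only.

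Values are CPM, counts scaled to the size of each library with TMM correction. The kit reads only the 3′ end of a transcript, so a transcript gives about 1 read whatever its length, and CPM values were not divided by length; how well each gene's 3′ end is annotated can still shift its level. Total counts per sample ranged from 2515697 to 4528845, and 3 counts, taken as the detection floor, corresponded to 0.665 to 1.15 CPM. All 8 skeletal muscle markers were well expressed, with summed levels of 126919 to 197188 CPM in air and 136264 to 171009 CPM in smoke. The order of the members by mean level was the same in both groups: Des, Tcap, Actn3, Myoz1, Flnc, Actn2, Myoz2, Synpo2, Myot and Myoz3. Des and Tcap were the 9th and 13th most abundant of all tested genes, at 9976 ± 1026 and 8463 ± 1113 CPM in air (SD, n = 11). Actn3 followed at 2479 ± 546 CPM and Myoz1 at 1178 ± 183 CPM. The next members lay far lower, between 466 ± 54.0 CPM for Flnc and 247.4 ± 25.6 CPM for Myot. Flnc and Actn2 were neighbours whose ranges overlapped, Flnc being the higher in 9 of 11 air samples and 7 of 13 smoke samples, as were Myoz2 and Synpo2 (7 of 11 and 8 of 13). Ranges of Des and Tcap overlapped too, but Des was the higher in each of the 24 samples.

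Myoz3 was at the limit of detection. It had 0 to 5 counts per sample, 22 in total over the air samples and 26 over the smoke samples, and 0 counts in 4 air samples and 1 smoke sample. It was the only member that failed the expression filter, so 9 of 10 members were tested. With no filter its log2 fold change was 0.03 (SE 0.50, edgeR adjusted p = 0.977), and with so few counts a difference was not detectable at this depth.

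**Figure D1:**
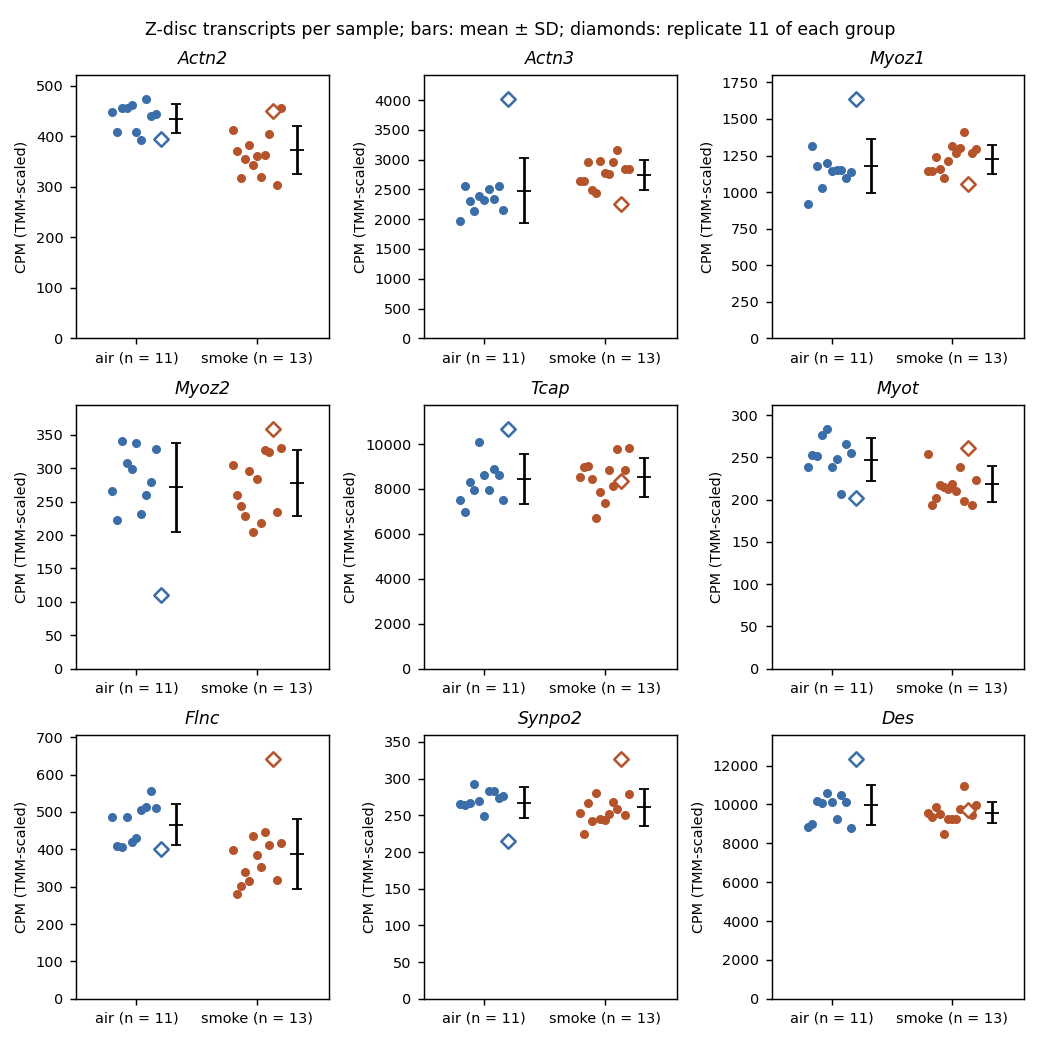
CPM of the 9 tested members in each sample, air (blue) and smoke (orange), with mean ± SD beside the points and replicate 11 of each group drawn as an open diamond. Actn2, Flnc and Myot sit lower in most smoke samples, and the 2 diamonds lie at opposite ends of the 24 values for Myoz2 and Synpo2. Replicate 11 of air is at 4026 CPM for Actn3 and 110 CPM for Myoz2.

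Of the 9 tested members, 1 passed the test between smoke and air, Actn2, which was lower under smoke. In the fit over all 10159 tested genes, 1.92% of genes were called at an adjusted p under 0.05, 1.19% of genes lower and 0.728% higher. At an unadjusted p under 0.05, 3 members were lower (Actn2, Myot and Flnc) and 0 were higher, where 7.95% of all tested genes were lower at that level. The median log2 fold change of the 9 members was −0.03, beside 0.0066 over all tested genes, and their fold changes ran from −0.26 to 0.15. In 0 of 9 members did the ranges of the 2 groups not overlap, as was the case for 0.0295% of all tested genes.

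Actn2, the α-actinin of all striated fibres, was at 393, 444 and 475 CPM (lowest, median and highest) in air and at 304, 363 and 455 CPM in smoke. Of 13 smoke samples, 9 lay below the lowest air sample, while the smoke replicates 11 and 13 lay within the upper part of the air range. The mean fell from 435 ± 28.8 CPM (SD, n = 11) to 373 ± 47.8 CPM (SD, n = 13), which is −0.22 on the log2 scale (SE 0.060, 95% interval −0.35 to −0.10) or −14.4% (edgeR quasi-likelihood test, Benjamini-Hochberg adjusted p = 0.0407). This call is close to the threshold: when each sample was left out in turn, the fold change stayed between −0.25 and −0.20, and the adjusted p ranged from 0.0155 to 0.0745 and missed 0.05 in 16 of 24 fits. With the replicate block, over the numbers that both groups have, Actn2 was at −0.24 (edgeR adjusted p = 0.0638).

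Actn3, the fast-fibre α-actinin, was not called. It was at 1969, 2343 and 4026 CPM in air and at 2254, 2783 and 3156 CPM in smoke, and exceeded the air mean in 11 of 13 smoke samples. The highest of all 24 values was that of air replicate 11, at 4026 CPM, where the other 10 air samples ranged from 1969 to 2565 CPM. Over all samples the log2 fold change was 0.15 (SE 0.078, 95% interval −0.0079 to 0.31, edgeR adjusted p = 0.352). Without air replicate 11 it was 0.24 and passed (SE 0.054, edgeR adjusted p = 0.0101).

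The balance of the 2 actinins can be read within each library, free of scaling. Actn3 had 4.39 to 10.2 times the counts of Actn2 in air and 5.004 to 9.34 times in smoke, with geometric means of 5.60 in air and 7.40 in smoke. For air the log2 ratio averaged 2.49 ± 0.33 (SD, n = 11), for smoke 2.89 ± 0.26 (SD, n = 13), and the difference was 0.40 (SE 0.12). In 12 of 13 smoke samples the ratio exceeded the air mean, and 4 of 11 air samples lay below every smoke sample, while the highest ratio of all was again that of air replicate 11. As a ratio of chosen members it was given no test.

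**Figure D2:**
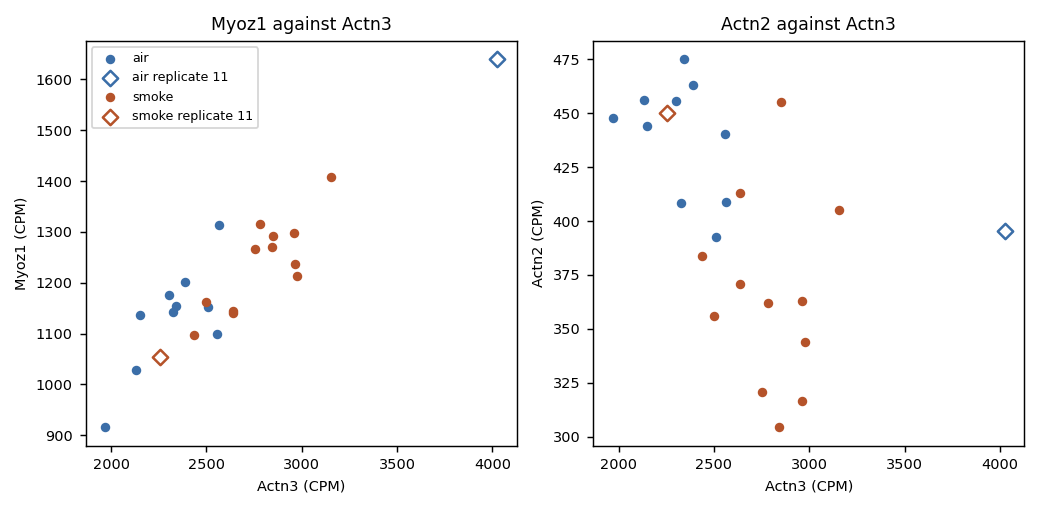
Myoz1 against Actn3 (left) and Actn2 against Actn3 (right), in CPM, 1 point per sample, air in blue and smoke in orange, replicate 11 of each group as an open diamond. Myoz1 and Actn3 lie along 1 line in both groups, whereas in the right panel most smoke samples lie to the lower right of the air samples.

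Among the myozenins, Myoz1, the main one in this muscle, was at 916, 1152 and 1640 CPM in air and at 1054, 1238 and 1408 CPM in smoke. The ranges overlapped almost wholly, and the log2 fold change was 0.05 (95% interval −0.08 to 0.19, edgeR adjusted p = 0.748). Myoz2, the slow-fibre and cardiac myozenin, was at 110, 280 and 341 CPM in air and at 205, 284 and 359 CPM in smoke. Its log2 fold change was 0.04 (95% interval −0.20 to 0.27, edgeR adjusted p = 0.929), and it was −0.05 without air replicate 11 and −0.0013 without smoke replicate 11. The lowest value, 110 CPM, was that of air replicate 11, where the other 10 air samples ranged from 223 to 341 CPM. The count ratio of Myoz2 to Myoz1 was 0.224 in air and 0.225 in smoke (geometric means). Myoz2 overlaps the annotated gene Gm22066 on the same strand, so its counts are uncertain to that extent.

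Tcap, which caps the ends of titin at the Z-disc, did not differ measurably. It was at 6968, 8298 and 10682 CPM in air and at 6694, 8524 and 9821 CPM in smoke, with a log2 fold change of 0.0080 (95% interval −0.12 to 0.14, edgeR adjusted p = 0.974). The interval corresponds to a change between −8.12% and 10.1%. Myot, which cross-links actin and binds α-actinin and filamin C, was at 202, 252.1 and 284 CPM in air and at 193, 214 and 261 CPM in smoke. Of 13 smoke samples, 11 lay below the air mean and 3 below the lowest air sample. Its log2 fold change was −0.18 (SE 0.060, 95% interval −0.30 to −0.06) and did not pass (edgeR adjusted p = 0.108). It passed without air replicate 11, at −0.21 (edgeR adjusted p = 0.0353), and in no other fit with 1 sample left out.

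Flnc, the muscle filamin that links Z-disc actin to the membrane, had the largest difference of the 9 members. It was at 400, 487 and 556 CPM in air and at 281, 386 and 642 CPM in smoke, and 8 of 13 smoke samples lay below the lowest air sample. A single smoke library, replicate 11, was the highest of all 24 at 642 CPM, where the other 12 smoke samples ranged from 281 to 445 CPM. The log2 fold change over all samples was −0.26 (SE 0.093, 95% interval −0.45 to −0.08, edgeR adjusted p = 0.133), and without smoke replicate 11 it was −0.35 and passed (SE 0.075, edgeR adjusted p = 0.00913). Leaving out both of the libraries numbered 11, a choice made after the data were seen, gave 4 called members, 3 lower (Flnc at −0.37, Actn2 at −0.26 and Myot at −0.23) and 1 higher (Actn3 at 0.26). Their edgeR adjusted p-values there were 0.00341, 0.00810, 0.0140 and 0.00203.

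Synpo2, an actin-bundling partner of filamin C and α-actinin, was at 214, 270 and 293 CPM in air and at 225, 253 and 327 CPM in smoke. Its log2 fold change was −0.03 (95% interval −0.15 to 0.08, edgeR adjusted p = 0.833). It overlaps 3 annotated genes on the same strand and 1 on the opposite strand. Des, the intermediate filament protein around the Z-disc, was at 8776, 10114 and 12343 CPM in air and at 8504, 9503 and 10938 CPM in smoke. Of 13 smoke samples, 11 lay below the air mean, but by little, with a log2 fold change of −0.06 (95% interval −0.16 to 0.04, edgeR adjusted p = 0.632). Des overlaps Gm15179 on the opposite strand, and whether the counting used strand is not given in the sources used here. Desmin, filamin C and Synpo2 are also found in smooth muscle; of 8 smooth muscle markers, 5 were tested and 0 called. Their summed level, 592 to 762 CPM in air and 631 to 738 CPM in smoke, was mostly that of Synm (563 ± 49.96 CPM in air), which striated muscle also expresses. Myh11, the smooth muscle myosin, averaged 7.15 ± 1.92 CPM in air and 10.1 ± 2.06 CPM in smoke (log2 fold change 0.50, edgeR adjusted p = 0.0558). The part of smooth muscle in the levels of Des, Flnc and Synpo2 was not tested.

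**Figure D3:**
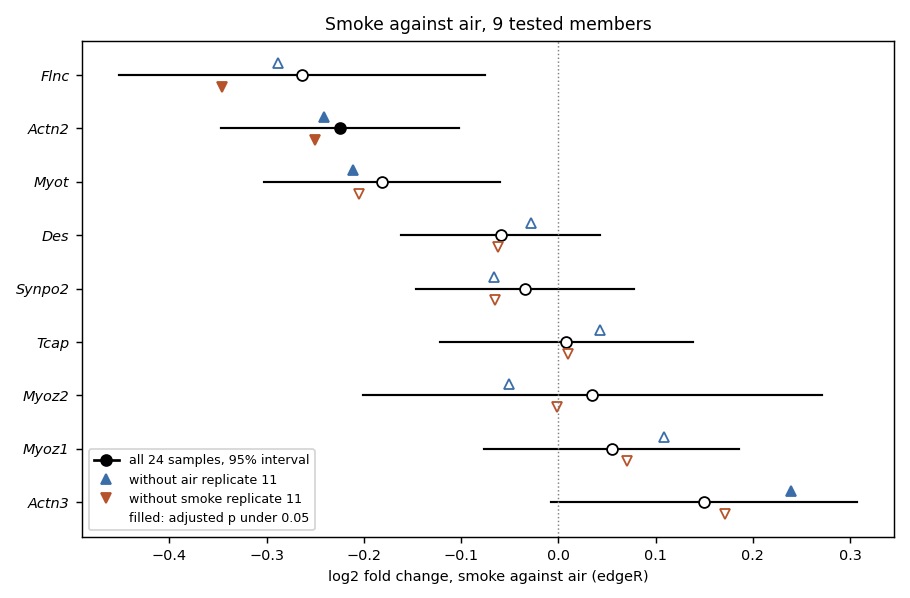
Log2 fold change of each tested member, smoke against air: all 24 samples (circle with 95% interval), without air replicate 11 (blue) and without smoke replicate 11 (orange). Filled symbols passed an adjusted p under 0.05: Actn2 in all 3 fits, Actn3 and Myot without air replicate 11, and Flnc without smoke replicate 11.

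Both libraries numbered 11 stood at an end of their own group's range for several members. Air replicate 11 had the highest level of its group for 4 of the 9 tested members (Actn3, Myoz1, Tcap and Des) and the lowest for 4 others (Myoz2, Flnc, Myot and Synpo2). Its mean correlation with the other air libraries over all tested genes was 0.952, where those of the remaining 23 libraries with their own group ranged from 0.958 to 0.972. By that measure smoke replicate 11 was not apart, at 0.968, and the lowest smoke libraries were replicates 10 (0.958) and 2 (0.960). Air replicate 11 also had the most Myh4, the myosin of the fastest fibres, at 55257 CPM against 30571 to 45823 CPM in the other air samples. Smoke replicate 11 differed the other way for 6 members: of its group it had the highest Myoz2, Flnc, Myot and Synpo2 and the lowest Actn3, Myoz1 and Myh4 (36546 CPM, the others from 38636 to 49440 CPM). The labels give nothing that sets these libraries apart, and both were kept.

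Correlations of log2 CPM between members were computed after subtracting the group means, over 24 samples and 36 pairs, with permutation of samples within groups and Benjamini-Hochberg adjustment over the pairs; the values share the scaling of each library. Both Pearson's r and Spearman's rho passed for 3 pairs, each positive. Actn3 and Myoz1, the fast-fibre isoforms, had r 0.91 (permutation p = 1e-05, the smallest the permutations can give, adjusted p = 0.00018) and rho 0.74 (permutation p = 0.00011, adjusted p = 0.00198). That r was 0.91 in air, 0.88 in smoke and 0.79 with the 2 samples of most extreme Actn3 left out. Tcap and Des had r 0.86 (permutation p = 1e-05, adjusted p = 0.00018) and rho 0.78 (permutation p = 4e-05, adjusted p = 0.00144), with r 0.92 in air, 0.80 in smoke and 0.78 without 2 samples. Actn2 and Myoz2 had r 0.60 (permutation p = 6e-05, adjusted p = 0.00072) and rho 0.66 (permutation p = 0.00115, adjusted p = 0.0138), with r 0.57 in air, 0.82 in smoke and 0.61 without 2 samples.

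Other pairs passed by r but not by rho, and in several of them r fell when 2 samples were left out. Actn3 and Des had r 0.68 (permutation p = 0.00286, adjusted p = 0.0156) and rho 0.44 (permutation p = 0.0403, adjusted p = 0.132). That r was 0.30 without air replicates 11 and 1. Myot and Synpo2 had r 0.58 (permutation p = 0.00393, adjusted p = 0.0177) and rho 0.46 (permutation p = 0.0289, adjusted p = 0.116). Their r was 0.23 without replicate 11 of both groups. That of Actn2 and Flnc went only from 0.54 to 0.52. Actn3 and Myoz2 had r −0.71 (permutation p = 0.00921, adjusted p = 0.0256), but rho −0.32 (permutation p = 0.142, adjusted p = 0.270), and r was −0.35 without air replicates 11 and 1. Flnc and Synpo2 had r 0.64 (permutation p = 0.00158, adjusted p = 0.0142) and rho 0.50 (permutation p = 0.0171, adjusted p = 0.116), and r was 0.31 without smoke replicates 11 and 2. The relation of Actn2 with its paralogue Actn3 had r −0.38 (permutation p = 0.0255, adjusted p = 0.0459) and rho −0.36 (permutation p = 0.0994, adjusted p = 0.258), so that rho did not pass, and r was −0.47 without smoke replicates 12 and 13.

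**Figure D4:**
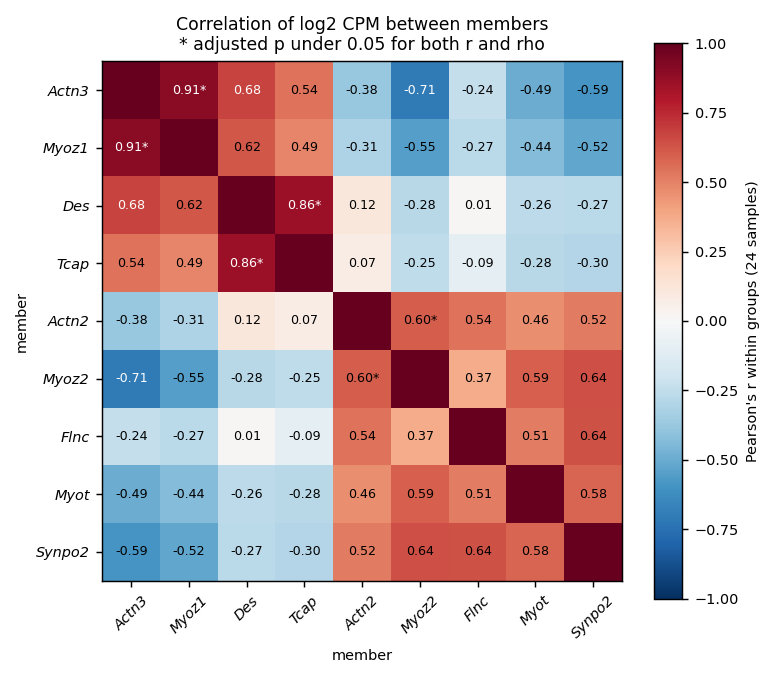
Pearson's r of log2 CPM between the 9 tested members after subtracting group means, over 24 samples; asterisks mark the 3 pairs in which r and rho both passed. Actn3, Myoz1, Des and Tcap correlate positively with each other (r 0.49 to 0.91), as do Actn2, Myoz2, Flnc, Myot and Synpo2 (r 0.37 to 0.64). Pairs without an asterisk did not pass by both measures.

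Fibre type markers were set beside the members. A fast fibre score (mean log2 CPM of 12 genes) correlated with Myoz1 at r 0.89 (permutation p = 1e-05, adjusted p = 9e-05 over 18 relations) and rho 0.73 (permutation p = 0.00024, adjusted p = 0.00216), and r was 0.77 without 2 samples. With Actn3 it had r 0.86 (permutation p = 1e-05, adjusted p = 9e-05) and rho 0.72 (permutation p = 0.00021, adjusted p = 0.00216), and r was 0.76 without 2 samples. The slow fibre score (9 genes) passed with 0 members, and its r with Myoz2 was 0.24 (permutation p = 0.261, adjusted p = 0.471) and rho 0.26 (permutation p = 0.238, adjusted p = 0.714). Summed slow markers were low, 427 to 816 CPM in air and 355 to 753 CPM in smoke, beside 165981 to 254904 CPM and 173964 to 220403 CPM for the fast ones. Myh2, the myosin of oxidative fast fibres, averaged 4002 ± 533 CPM in air. In smoke it averaged 3328 ± 546 CPM, and its log2 fold change of −0.27 did not pass (edgeR adjusted p = 0.0627), and Myh4 was at 39487 ± 6367 and 44099 ± 4080 CPM (0.16, edgeR adjusted p = 0.228). Myh1 and Myh7 had edgeR adjusted p-values of 0.993 and 0.875. In whole muscle, fewer fibres of a type and less RNA per fibre cannot be told apart.

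The genes whose pattern was most like that of a member, by r of log2 CPM within groups over 24 samples, were for Actn2 the LIM-domain gene Fhl1 (r 0.77) and Smtnl1, a smoothelin-like regulator of contraction (r 0.77). For Myoz2 they were Homer2, a scaffold protein (r 0.85), and Lmod2, an actin filament nucleator (r 0.79). For Synpo2 they were Nrap, an actin-anchoring Z-disc protein (r 0.82), and Slmap, a sarcolemmal protein (r 0.82). Actn3 was most like Pgm1, phosphoglucomutase (r 0.91), and Myoz1 (r 0.91), and Actn3 was likewise among the 2 nearest of Myoz1. Des and Tcap were each in the other's 2 nearest, with Cacna1s, the calcium channel of the T-tubule, beside Des (r 0.86) and Mrpl2, a mitochondrial ribosomal protein, beside Tcap (r 0.86). For Flnc they were Cops3 (r 0.74) and Eda2r (r 0.73), and for Myot Gatad2b (r 0.81) and Yy1 (r 0.77). These r are descriptions, picked as the highest of all tested genes.

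Other genes of the Z-disc and its neighbours in the sarcomere were taken from a list of 54, of which 48 were tested. Of these, 8 were called, all lower under smoke (16.7% of the list beside 1.19% of all tested genes), and 19 were lower at an unadjusted p under 0.05 (39.6% beside 7.95%) with 0 higher. Their median log2 fold change was −0.09, beside 0.0066 over all tested genes. Part of these genes had already been reported to be lower in earlier results on these samples, so the list is not independent of them. Left out of the test for low counts were Nebl, Fhl2, Capza1, Fblim1, Trim55 and Fbxl22.

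Csrp3, the muscle LIM protein that binds α-actinin and Tcap, was at 169, 242.1 and 286 CPM in air and at 75.2, 136 and 362 CPM in smoke. Of 13 smoke samples, 11 lay below the lowest air sample, while smoke replicate 11 was the highest of all 24. Csrp3 fell by 0.70 on the log2 scale (SE 0.16, edgeR adjusted p = 0.0142). Without smoke replicate 11 it fell by 0.90 (edgeR adjusted p = 4.88e-06). Xirp1, an actin-binding partner of filamin C, was at 26.8, 43.0 and 69.1 CPM in air and at 16.1, 23.3 and 56.1 CPM in smoke, with smoke replicate 11 the highest of its group. It fell by 0.71 on the log2 scale (SE 0.16, edgeR adjusted p = 0.0142). Rcan1, an inhibitor of the calcineurin that myozenins bind, was at 116, 176 and 257 CPM in air and at 78.2, 114 and 194 CPM in smoke, and 11 of 13 smoke samples lay below the lowest air sample. It fell by 0.65 on that scale (SE 0.12, edgeR adjusted p = 0.00226). For the catalytic subunits of calcineurin, the log2 fold changes were 0.04 for Ppp3ca and 0.06 for Ppp3cb (edgeR adjusted p = 0.827 and 0.720).

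Among the PDZ-LIM adaptors that bind α-actinin, Pdlim1 fell by 0.61 on the log2 scale (edgeR adjusted p = 7.30e-05). Its much more abundant relatives Ldb3 (942 ± 61.7 CPM under air, 921 ± 98.2 CPM under smoke) and Pdlim3 (482 ± 42.5 and 449 ± 46.0 CPM) did not pass (edgeR adjusted p = 0.838 and 0.399). Fhl1 fell from 1694 ± 290 to 1315 ± 211 CPM (log2 fold change −0.37, SE 0.084, edgeR adjusted p = 0.0142) and Smtnl1 from 113 ± 18.1 to 84.3 ± 16.2 CPM (−0.42, SE 0.091, edgeR adjusted p = 0.00984), the pair whose pattern within groups was most like that of Actn2. Bag3, a co-chaperone in the turnover of damaged filamin, fell from 321 ± 23.7 to 278 ± 24.2 CPM (−0.21, SE 0.052, edgeR adjusted p = 0.0273). That call was lost without air replicate 3 (edgeR adjusted p = 0.0520) and without smoke replicate 6 (0.0511). Its chaperone partners Cryab and Hspb1 had log2 fold changes of −0.22 and −0.27 and did not pass (edgeR adjusted p = 0.0712 and 0.0914), and Hspb8 was at −0.03 (0.886). Lmod2, which acts on the pointed ends of thin filaments, fell from 75.3 ± 23.6 to 52.9 ± 11.2 CPM (−0.51, SE 0.13, edgeR adjusted p = 0.0359), a call that was lost in 12 of 24 fits with 1 sample left out. By annotation, Xirp1 overlaps Cx3cr1, Fhl1 overlaps Gm23258 and Bag3 overlaps 2610306O10Rik on the same strand, so reads of each pair may be mixed.

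Titin and nebulin, large scaffolds that reach into the Z-disc, did not pass: the log2 fold change was 0.03 for Ttn (titin, edgeR adjusted p = 0.919) and 0.03 for Neb (nebulin, 0.914). Those of the barbed-end cappers were 0.09 for Capzb and 0.11 for Capza2 (edgeR adjusted p = 0.401 and 0.377). The non-muscle actinins Actn1 and Actn4 were low, at 14.2 ± 3.48 and 17.9 ± 4.98 CPM in air, beside 435 CPM for Actn2, and were not called (edgeR adjusted p = 0.416 and 0.492). The non-muscle filamin Flna, at 31.7 ± 4.54 CPM in air, was not called either (edgeR adjusted p = 0.861).

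**Figure D5:**
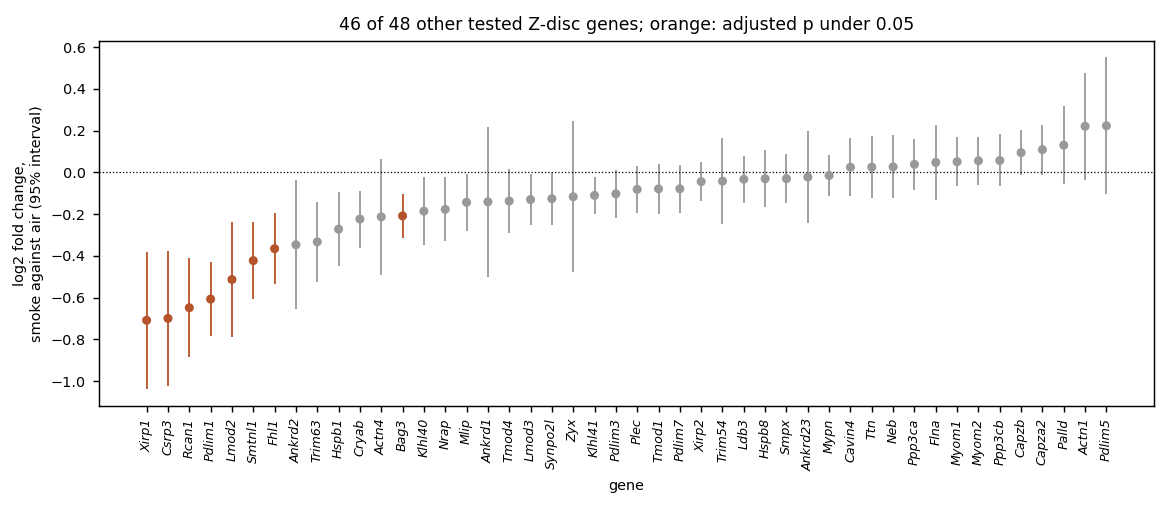
Log2 fold change with 95% interval, smoke against air, of 46 of the 48 other tested Z-disc genes in order of size. The 8 called genes (orange) all lie below 0, from −0.71 for Xirp1 to −0.21 for Bag3, and 0 of the genes above 0 were called.

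Some markers of the clock, of nerve and of blood also differed between the groups. A clock index (mean log2 CPM of 7 tested genes of the Dbp and Per side minus that of 3 of the Clock and Nfil3 side) ran from 0.56 to 1.70 in air and from 0.97 to 2.65 in smoke, lowest of the smoke samples in replicate 11. Of its genes, 3 of 7 were called higher (Dbp, Per3 and Nr1d2) and 1 of 3 lower (Nfil3), and Dbp at 1.18 and Nfil3 at −1.31 had the largest log2 fold changes. With this index as a covariate, the log2 fold change was −0.15 for Actn2, −0.04 for Flnc and −0.06 for Myot (edgeR adjusted p = 0.445, 0.924 and 0.823), 0 members and 1 of the 48 other Z-disc genes (Pdlim1) were called, and Actn3 turned to −0.06 (0.854). In that fit Rcan1 and Lmod2 lost their calls at fold changes of −0.60 and −0.55, close to those without the index, while Csrp3 was at −0.31 and Smtnl1 at −0.22. The index correlated with the group itself at r 0.75, so in that fit the index and smoke exposure cannot be told apart. Summed Schwann cell markers, 9 of 9 with counts above 0, were at 168 to 383 CPM in air and 242.6 to 1026 CPM in smoke, with 6 of 9 called higher. Their smoke median of 315 CPM lay within the air range. The highest Schwann scores (mean log2 CPM) were those of smoke replicates 2, 10 and 12, at 5.93, 5.49 and 5.43. Summed blood markers (5 of 5 with counts above 0) were at 486 to 1444 CPM in air and 369 to 883 CPM in smoke, with 3 of 5 called lower. With the Schwann score as a covariate Actn2 was at −0.22 (edgeR adjusted p = 0.190) and with the blood score at −0.22 (0.162). These 2 scores correlated with the group at r 0.58 and −0.56, so in these fits the scores and smoke exposure cannot be told apart. Of 9 fibroblast and tendon markers, 0 were called, 8 had a fold change below 0 and 3 were lower at an unadjusted p under 0.05. Of 9 slow fibre markers, 0 were called, 5 had a fold change below 0 and 4 above 0, with a median log2 fold change of −0.00022. At that level 3 of them (Myl2, Atp2a2 and Myl3) were lower and 0 higher. Across samples within groups, 0 of 27 relations of the 9 members with these 3 scores passed, the smallest adjusted permutation p being 0.132 for r and 0.230 for rho. Beyond these fits, the part of these markers in the results was not tested. In the column headers every smoke sample has a lower sheet number than every air sample, so sheet order and exposure are confounded.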

How the data were processed

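Plantaris RNA was sequenced with the Lexogen QuantSeq 3′ FWD kit, per the labels' protocols. The authors deposited raw counts per Ensembl gene ID, 1 column per sample, with 2515697 to 4528845 counts per sample. The submitters' processing notes name STAR, DESeq2 and mm9 with no role; the counter, annotation and strand setting are not given in the sources used here. Reads may include PCR copies, so floors cover counting error only. Symbols came from GENCODE M21 (GRCm38), which held 47224 of 47643 IDs (99.1%); promoter windows carry RefSeq's GRCm38.p6 coordinates, not the authors' build.

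Counts were analysed with edgeR 4.0.16 (R 4.3.3): filterByExpr with a minimum count of 10, TMM, and the quasi-likelihood F-test of smoke against air on 24 samples without covariates. P-values were Benjamini-Hochberg adjusted over 10159 genes and called under 0.05. The procedure was tested on simulated data whose planted changes were larger than those of the members. Recovery of changes as small as theirs was not tested. Scores and correlations used log2 CPM with a prior count of 2, and correlations 100000 permutations; a pair passed when r and rho both did. Members and lists were chosen with earlier results of these data known. Named were the members, the called genes of the other Z-disc list, the 2 genes most like each member and 4 myosins. Further genes of that Z-disc list were named after their values were seen. Some markers of fibre types, cell types and the clock were named as well. A few genes that belong here are not reported. Alternatives (DESeq2 1.42.0, limma 3.58.1, other scalings, filters, covariates and left-out samples) are in the closing section; the Schwann and blood covariates and the fit without both libraries numbered 11 were added after the data were seen.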

Additional observations from a re-analysis of the deposited data

How the results depend on the processing

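Beside 195 genes called, DESeq2 called 323, an adjusted p under 0.10 gave 413, the clock index 49, the Schwann score 71 and the blood score 56. Beside 1 member called (Actn2), 0 were called with no expression filter (2706 genes at an unadjusted p under 0.05, edgeR), with the replicate block, and with the slow fibre, clock, Schwann or blood score as a covariate; DESeq2 and voom each called 1. With no filter Actn2 was still at −0.23 (edgeR adjusted p = 0.0502) and with the slow fibre score at −0.22 (0.0501), both p just above 0.05, whereas with the clock index it was at −0.15 (0.445). Without both libraries numbered 11, 4 were called. Beside 8 other Z-disc genes called, robust dispersion gave 5, the replicate block 5, the clock index 1, the Schwann score 2 and the blood score 3. The highest number in any alternative that leaves out no single sample was 12. Over the 15 alternatives that leave out no single sample, Rcan1 stayed between −0.68 and −0.60 and Lmod2 between −0.63 and −0.48, though Lmod2 lost its call in 6 and Rcan1 in 1. Pdlim1 ran from −0.67 to −0.55 and kept its call in all 15. Csrp3 ran from −0.92 to −0.31, Xirp1 from −0.90 to −0.29 and Smtnl1 from −0.51 to −0.22. Fhl1 ran from −0.45 to −0.20 and Bag3 from −0.23 to −0.13. Csrp3 and Xirp1 each lost their call in 4, Smtnl1 and Fhl1 each in 3, and Bag3 in 5. Leaving out each sample in turn gave 141 to 254 genes, 0 to 3 members (3 without air replicate 11) and 6 to 10 other Z-disc genes.

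Of members that were not called, 5 changed sign. Actn3, at 0.15 over all samples, was at −0.061 and Myoz1 at −0.11 with the clock index, and Myoz2 at −0.045 with the blood score and −0.084 without both libraries numbered 11 (−0.051 to 0.072 over left-out samples). Tcap was at −0.0014 with no filter, −0.0020 with a CPM filter, −0.015 with the replicate block, −0.16 with the clock index and −0.043 with the Schwann score (−0.020 to 0.043 over left-out samples). Synpo2 was at 0.097 with the clock index and 0.019 with the Schwann score. The cause was not tested. The median fold change over all genes stayed at or under 0.0091 over all samples and in the alternatives that leave out no single sample. A prior count of 0.5 left 3 member pairs and 2 fibre score relations passing. Des has no value without the 10 most abundant genes, being 1 of them.

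Replicate numbers are shared by 11 pairs across groups without a stated link. Deviations of same-numbered samples correlated at a mean r of −0.0059, over 0.1 in 4 of 11 pairs. With the replicate block 138 genes were called, 110 of them shared with the 195.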

Other observations

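The 2 libraries numbered 11 also lay at the ends of ranges of other muscle genes. Air replicate 11 had the most Pvalb, the calcium buffer of fast fibres, at 20615 CPM, where the other 23 samples lay between 12225 and 16588 CPM, and the most Acta1, skeletal actin, at 68442 CPM, where the other air samples lay between 45095 and 56126 CPM. It had the least Myh1, at 1272 CPM, and the least Lmod2, at 33.7 CPM, of all 24 samples. Smoke replicate 11 had the least Pvalb of its group, at 12260 CPM, and the most Csrp3 of all 24, at 362 CPM, where the other 12 smoke samples lay between 75.2 and 170 CPM. It also had the most Bag3 and Smtnl1 of its group, at 337 and 121 CPM, where the other 12 smoke samples lay between 243.4 and 301 CPM for Bag3 and between 60.6 and 103 CPM for Smtnl1.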
